A study of Macaca mulatta with 17 samples.

Results

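The genes described here are 41 genes of the smooth muscle contractile programme, followed in the uterus of fetal rhesus macaques. They were listed by name from what is known of smooth muscle, by a rule that uses no value of these arrays but was set with earlier results of the data known, and all 41 of 41 had at least 1 probe on the array, with 47 probes among the 20217 probes tested. A gene with several probes is described by its brightest probe, taken over all 17 arrays. RNA came from whole frozen tissue, 1 side of a uterus cut lengthwise from fundus to cervix, so every value averages over myometrium, endometrial stroma, epithelium, vessels and any tissue attached to the organ. In such bulk RNA, more smooth muscle cells and more of a transcript per smooth muscle cell cannot be told apart.

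Each array carried RNA of 1 female fetus. The mothers of the BPA-exposed fetuses ate deuterated bisphenol A, a xenoestrogen used in plastics, in fruit at 400 ug/kg each day, and the mothers of the control fetuses were given the ethanol vehicle. Dosing ran from gestational day (GD) 50 to 100 in the GD100 fetuses and from day 100 until birth at full term, day 165 to 168, in the GD165 fetuses, so age and dosing window changed together in the exposed animals. The GD100 fetuses were taken by caesarean section and the GD165 fetuses were born vaginally, so gestational age and mode of delivery cannot be told apart in any age comparison below. There were 5 GD100 control, 5 GD100 BPA-exposed, 4 GD165 control and 3 GD165 BPA-exposed uteri. The paper left stillborn fetuses out of its array analyses.

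Smooth muscle contracts when calcium, bound to calmodulin, activates myosin light chain kinase, which phosphorylates the regulatory light chain of smooth muscle myosin, and relaxes when myosin phosphatase removes that phosphate. Actin filaments with tropomyosin, caldesmon and calponin on them are anchored in dense bodies inside the cell and in adhesion plaques at its edge, where integrins and the dystrophin and sarcoglycan complex join them to the matrix. Serum response factor and its muscle-restricted coactivator myocardin drive most of these genes, and in the uterus the myometrium is laid down before birth as layers of such cells around the stroma.

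Levels are given as log2 of the scanner's processed signal after all arrays were brought to one 75th percentile, so that a difference of 1 is a 2-fold change, and the level of 1 gene's probe is not compared with that of another. A gene was called when its difference passed a Benjamini-Hochberg adjusted p of 0.01 over all 20217 probes in limma's moderated linear model, which also gave the standard errors (SE) and adjusted p-values below. All 41 brightest probes were well above background on all 17 arrays, from a mean level of 6.82 for SGCD to 18.86 for ACTA2. The probe of ACTA2 was saturated on 2 arrays, 1 GD165 control and 1 GD165 BPA-exposed. Over the whole array, 83.8 to 89.0% of spots were well above background, arrays correlated at 0.974 to 0.995 with each other, and no pair of arrays held identical values. Leading smooth muscle markers (MYH11, ACTA2, CNN1, SMTN, LMOD1, TAGLN) were present in every uterus.

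The probes that measured these genes were 60-base oligonucleotides, 36 of the 41 designed on human and 5 on macaque sequence (SMTN, MYL6, PPP1R14A, ITGA7 and CSRP1). The array's annotation gives 35 of the 41 by gene symbol. MYL6, PPP1R14A and CSRP1 rest on macaque cDNA clones described as highly similar to the human gene, and SMTN, ITGA7 and TPM4 on predicted transcripts described as similar to the named protein. The first 30 bases of 6 probes are shown because the results turn on which transcript they read, with the longest run shared by the probes of the 2 smooth muscle actins, 10 bases, in capitals.
ACTA2: accgcaaaTGCTTCTAAAacactttcccgc
ACTG2: tgtccacaggaagTGCTTCTAAAgtcagaa
PLN: gaattctctctccaaatattaactaattct
PDLIM3: tagggagaaagtccctgaatttctttagtt
PDLIM7, brighter probe: tggccgcacaactgggttcatctgacactg
PDLIM7, other probe: tctgcaagagccatgccttctcccacgtgt
Over the whole array, 2 of the 41 probes, those of TAGLN and MYH11, shared a run of 15 bases or more with a probe of another gene, in each case 15 bases long. How well probes designed on human sequence match the macaque transcripts was not tested.

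From GD100 to GD165 in control fetuses, 12 of the 41 smooth muscle genes were called (29.3%), against 11.5% of all probes. The calls ran mostly upward, with 11 genes higher at GD165 (26.8%, against 6.32% of all probes) and PDLIM7 alone lower (2.44%, against 5.20%). The median difference of the 41 genes was 0.32 on the log2 scale, against 0.0046 over all probes, and 33 of them had a positive difference. In 13 genes (31.7%, against 19.4% of all probes) the values of the GD100 and GD165 control uteri did not overlap. The genes that rose were PLN, PDLIM3, ITGA8, CNN1, KCNMA1, LMOD1, CSRP1, PPP1R14A, MYOCD, SMTN and PDLIM5, which belong to calcium handling, the thin filament, phosphatase inhibition, dense bodies and adhesion, and transcription, whereas none of the 3 myosin genes and neither smooth muscle actin passed the test.

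**Figure D1:**
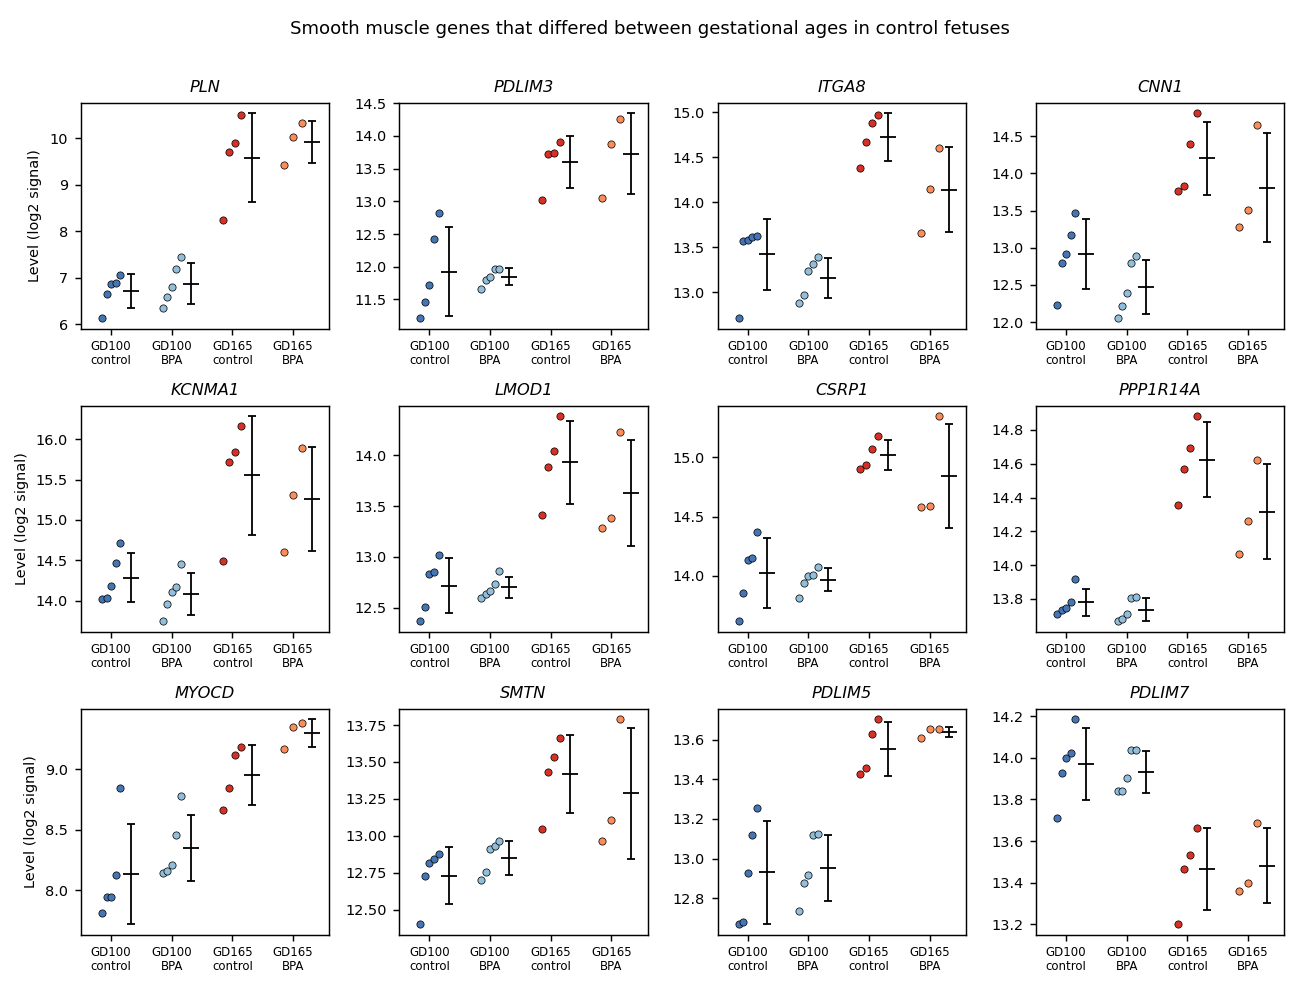
Level (log2 signal, vertical axes differ between panels) of the 12 genes called between GD100 and GD165 in control fetuses, each point 1 uterus, with the mean and SD of each group at its right. In PLN, PDLIM3, ITGA8, CNN1, LMOD1, CSRP1, PPP1R14A, SMTN and PDLIM5 all GD165 control points lie above all GD100 control points, in PDLIM7 they lie below, and in KCNMA1 and MYOCD the ages overlap.

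Among the genes of the calcium store and the potassium channel, PLN, which encodes phospholamban, the inhibitor of the calcium pump of the sarcoplasmic reticulum, changed more than any other listed gene. Its level was 6.13, 6.65, 6.85, 6.88 and 7.06 in the GD100 control uteri and 8.24, 9.69, 9.89 and 10.49 in the GD165 control uteri. No value of one age reached the other, and even the lowest GD165 uterus stood above every GD100 uterus. Its difference was 2.87 (SE 0.37, adjusted p = 9.5e-05), a 7.29-fold rise. KCNMA1 encodes the pore of the large-conductance calcium-activated potassium channel, a brake on excitation, and its level was 14.02, 14.03, 14.18, 14.47 and 14.72 in the GD100 control uteri and 14.48, 15.72, 15.85 and 16.16 in the GD165 control uteri. A single GD165 uterus lay within the GD100 range and the other 3 stood well above it. The difference was 1.27 (SE 0.31, adjusted p = 0.00845). KCNMB1, the smooth muscle subunit of the same channel, had a difference of 0.98 (SE 0.30, adjusted p = 0.0304) and was not called. Nor was CASQ2, a calcium-storing protein of the reticulum, at 0.76 (SE 0.27, adjusted p = 0.0549).

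In the thin filament, 3 of 12 genes rose and none fell. CNN1, the calponin restricted to smooth muscle, was at 12.22, 12.80, 12.92, 13.18 and 13.47 in the GD100 control uteri and 13.76, 13.83, 14.40 and 14.81 in the GD165 control uteri, every GD165 value being the higher. Its difference was 1.28 (SE 0.31, adjusted p = 0.0088), 2.44-fold. LMOD1, a leiomodin that starts new actin filaments in smooth muscle, was at 12.37, 12.51, 12.83, 12.85 and 13.02 in the GD100 control uteri and 13.41, 13.88, 14.05 and 14.38 in the GD165 control uteri, again without overlap. The difference for LMOD1 was 1.22 (SE 0.21, adjusted p = 0.000811). SMTN, smoothelin, found in fully contractile smooth muscle cells, was at 12.40, 12.73, 12.82, 12.84 and 12.87 in the GD100 control uteri and 13.05, 13.43, 13.53 and 13.66 in the GD165 control uteri, with the lowest GD165 uterus close to the highest GD100 uteri. Smoothelin's difference was 0.69 (SE 0.16, adjusted p = 0.00726).

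The other 9 thin filament genes were not called. ACTA2, the alpha actin of smooth muscle, was at 18.61, 18.63, 18.83, 18.90 and 18.97 in the GD100 control uteri and 18.85, 18.92, 19.14 and 19.26 in the GD165 control uteri, and the groups overlapped, with a difference of 0.26 (SE 0.11, 95% interval 0.03 to 0.49, adjusted p = 0.11). ACTG2, the gamma actin typical of visceral muscle, overlapped as well, at 17.84, 18.22, 18.24, 18.43 and 18.46 in the GD100 control uteri and 18.33, 18.46, 18.79 and 18.87 in the GD165 control uteri, a difference of 0.37 (SE 0.17, adjusted p = 0.133). TAGLN, the actin-bundling transgelin, and CALD1, caldesmon, had differences of 0.21 and 0.35 (adjusted p = 0.162 and 0.0328). Of the tropomyosins, which lie along the actin filament, TPM2 was at 0.26 (adjusted p = 0.189). A second, dimmer TPM2 probe gave 0.71 with a wide spread (SE 0.49, adjusted p = 0.342). TPM4, a form found in many cell types, was at -0.44 with no overlap between the ages (adjusted p = 0.017). TPM1 was at 1.02, with the widest spread among the brightest tropomyosin probes (SE 0.36, adjusted p = 0.0578). TPM1 was 12.84, 13.17, 13.53 and 14.89 in the GD165 control uteri, and its highest value belonged to replicate 5, the control uterus with the highest skeletal muscle markers. CNN2 and CNN3, calponins of many non-muscle cells, had differences of -0.34 and -0.08 (adjusted p = 0.412 and 0.766).

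The 3 myosin genes had small positive differences and none was called. MYH11, the heavy chain that defines smooth muscle, was at 18.23, 18.31, 18.49, 18.52 and 18.74 in the GD100 control uteri and 18.48, 18.91, 19.04 and 19.10 in the GD165 control uteri, where 1 GD165 uterus lay among the GD100 values. Its difference was 0.42 (SE 0.14, 95% interval 0.13 to 0.72, adjusted p = 0.0402). MYL6, the essential light chain, did not overlap between the ages, at 17.90, 17.95, 17.96, 18.08 and 18.09 in the GD100 control uteri and 18.21, 18.29, 18.35 and 18.43 in the GD165 control uteri, and with a difference of 0.32 (SE 0.08, adjusted p = 0.012) it missed the threshold narrowly, as its second probe did (0.36, adjusted p = 0.0106). MYL9, the regulatory light chain that the kinase phosphorylates, differed by 0.27 (SE 0.11, adjusted p = 0.103).

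**Figure D2:**
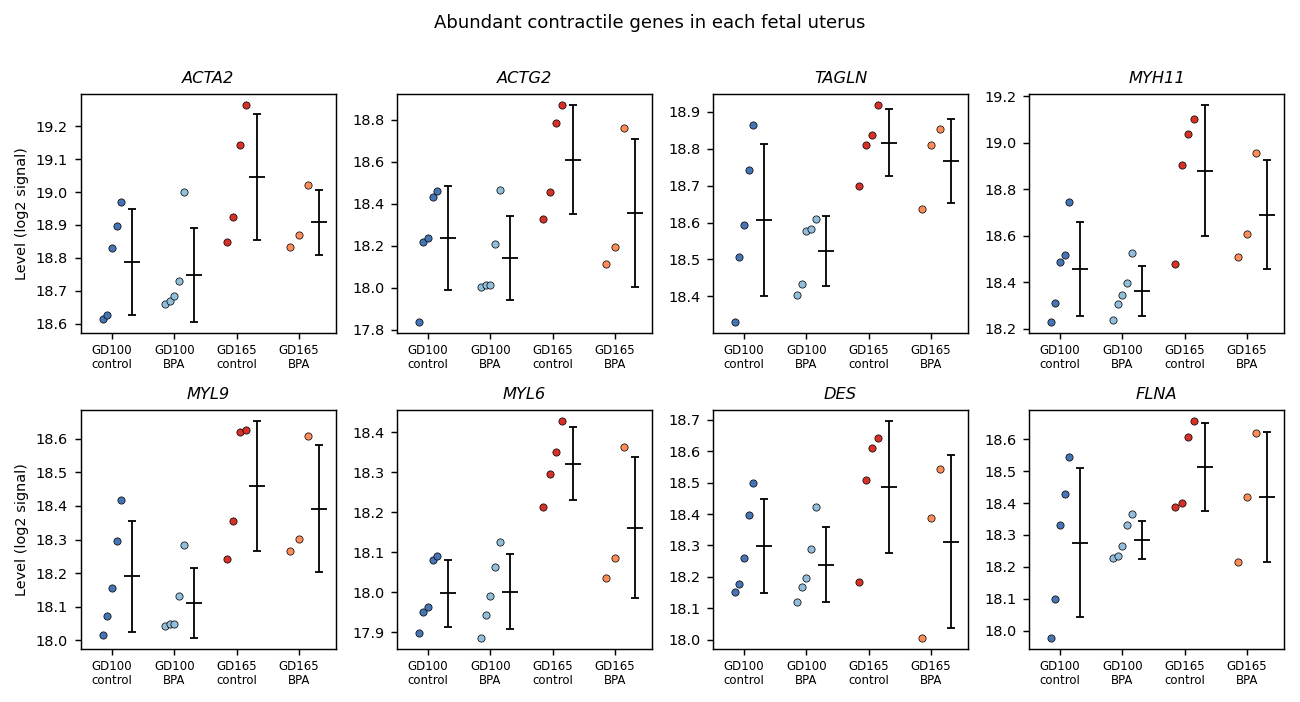
Level (log2 signal, vertical axes differ between panels) of 8 abundant contractile genes, none of them called, each point 1 uterus, with the mean and SD of each group at its right. The GD165 control mean is above the GD100 control mean in all 8 panels, by 0.19 (DES) to 0.42 (MYH11), and the control groups of the 2 ages overlap in all but MYL6.

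Of the 5 genes listed under myosin regulation, PPP1R14A rose. This gene encodes CPI-17, which inhibits myosin phosphatase once protein kinase C has phosphorylated it. Its level was 13.71, 13.74, 13.75, 13.78 and 13.91 in the GD100 control uteri and 14.35, 14.57, 14.70 and 14.88 in the GD165 control uteri, the GD100 values lying close together and all GD165 values above them. The difference was 0.85 (SE 0.11, adjusted p = 0.000131), 1.8-fold. PPP1R12B, a myosin-targeting subunit of the phosphatase, had a difference of 0.56 by its brighter probe and 0.72 by the other (adjusted p = 0.0139 and 0.0163). MYLK, the kinase itself, PPP1R12A, the related targeting subunit of most tissues, and HSPB6, a small heat shock protein of muscle, had differences of 0.28, 0.17 and 0.07 (adjusted p = 0.275, 0.341 and 0.776).

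The intermediate filament, dense body and adhesion genes held 4 that rose and 1 that fell, of 15 (33.3% called, against 11.5% of all probes). PDLIM3, a PDZ and LIM domain protein that binds alpha-actinin, was at 11.21, 11.45, 11.73, 12.42 and 12.82 in the GD100 control uteri and 13.02, 13.72, 13.74 and 13.91 in the GD165 control uteri. GD100 controls were spread widely here, and all GD165 values still lay above them. The difference was 1.67 (SE 0.31, adjusted p = 0.0014), 3.19-fold. ITGA8, an integrin chain of smooth muscle and mesenchyme that pairs with beta 1, was at 12.71, 13.57, 13.58, 13.62 and 13.63 in the GD100 control uteri and 14.38, 14.66, 14.88 and 14.97 in the GD165 control uteri, with 1 GD100 uterus far below the other 4. Its difference was 1.30 (SE 0.22, adjusted p = 0.000638). CSRP1, a LIM protein of smooth muscle, was at 13.62, 13.86, 14.14, 14.15 and 14.37 in the GD100 control uteri and 14.90, 14.94, 15.07 and 15.18 in the GD165 control uteri, the ages standing apart. The CSRP1 difference was 0.996 (SE 0.16, adjusted p = 0.000583).

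PDLIM5 and PDLIM7, PDZ and LIM domain scaffold proteins of the actin cytoskeleton, went opposite ways. PDLIM5 was at 12.67, 12.68, 12.93, 13.12 and 13.26 in the GD100 control uteri and 13.42, 13.46, 13.63 and 13.70 in the GD165 control uteri, all GD165 values being higher. Its difference was 0.62 (SE 0.13, adjusted p = 0.00251). A second, much dimmer PDLIM5 probe, well above background on 16 arrays, gave 0.76 with overlapping ages and was not called (adjusted p = 0.053). PDLIM7 was at 13.71, 13.93, 14.00, 14.02 and 14.19 in the GD100 control uteri and 13.20, 13.47, 13.53 and 13.66 in the GD165 control uteri, all GD165 values being lower. It fell by 0.50 (SE 0.11, adjusted p = 0.0049). The second PDLIM7 probe, which shares no run longer than 6 bases with the brighter one, gave -0.06 (adjusted p = 0.799) in the same comparison, so the fall was seen with 1 of 2 probes.

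SGCA, the alpha chain of the sarcoglycan complex, was at 7.63, 7.78, 7.90, 7.90 and 8.33 in the GD100 control uteri and 8.03, 9.19, 9.36 and 9.85 in the GD165 control uteri, where 1 GD165 uterus overlapped the GD100 range, and its difference of 1.20 (SE 0.30, adjusted p = 0.011) just missed the threshold. SYNPO2, an actin-binding protein of the dense body, did not overlap between the ages (difference 0.65, SE 0.18, adjusted p = 0.0187). The remaining 8 genes, DES, VCL, FLNA, ACTN1, ITGA7, SGCD, CSRP2 and LPP, had differences between -0.29 (CSRP2) and 0.24 (FLNA) with adjusted p of at least 0.171. DES encodes desmin, the intermediate filament of muscle, and VCL, FLNA and ACTN1 encode the actin anchors vinculin, filamin A and alpha-actinin 1.

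Of the 2 transcription factors, MYOCD, myocardin, rose and SRF, its partner on DNA, was not called. MYOCD was at 7.81, 7.94, 7.94, 8.13 and 8.84 in the GD100 control uteri and 8.66, 8.84, 9.12 and 9.19 in the GD165 control uteri. A single GD100 uterus, at 8.84, reached the GD165 range and the other 4 lay below it. Its difference was 0.82 (SE 0.19, adjusted p = 0.00733), 1.76-fold, and SRF differed by -0.15 (SE 0.13, adjusted p = 0.486).

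Of the 41 genes, 9 had a mean level of 17 or more (ACTA2, ACTG2, TAGLN, TPM2, MYH11, MYL6, MYL9, DES and FLNA), near the top of the scanner's range. All 9 had a positive difference in controls, between 0.19 and 0.42, and none of them was called, whereas 12 of the other 32 were. Among all probes as bright, 6.57% were called and the median size of the difference was 0.12, against 11.6% and 0.23 among dimmer probes. Whether the scanner's ceiling held these differences down was not tested.

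In BPA-exposed fetuses, which share no array with the control comparison, 10 of the 41 genes were called between GD100 and GD165 (24.4%, against 9.68% of all probes), all of them higher (against 4.82% of all probes higher and 4.86% lower). The median difference was 0.30, against -0.05 over all probes, and in 18 genes (43.9%, against 27.2% of all probes) the ages did not overlap. In both comparisons 8 genes were called, and all 8 rose in both: PLN, PDLIM3, ITGA8, LMOD1, CSRP1, PPP1R14A, PDLIM5 and MYOCD. All 12 genes called in controls had the same sign here, as had 98.8% of all probes called in controls. Over the whole list 36 of the 41 genes had the same sign, against 70.7% of all probes.

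PLN was 6.34, 6.59, 6.79, 7.19 and 7.44 in the GD100 uteri and 9.41, 10.02 and 10.32 in the GD165 uteri of BPA-exposed fetuses, with every GD165 value the higher, and its difference was 3.04 (SE 0.40, adjusted p = 0.000202). PDLIM3 was 11.66, 11.80, 11.84, 11.97 and 11.97 in the GD100 uteri and 13.05, 13.87 and 14.26 in the GD165 uteri, again apart, with a difference of 1.88 (SE 0.34, adjusted p = 0.00146). MYOCD was 8.15, 8.16, 8.21, 8.46 and 8.78 in the GD100 uteri and 9.17, 9.34 and 9.38 in the GD165 uteri, and here no GD100 value reached the GD165 values (difference 0.95, SE 0.21, adjusted p = 0.00587). The differences of ITGA8, LMOD1, CSRP1, PDLIM5 and PPP1R14A were 0.98, 0.93, 0.87, 0.69 and 0.58 (adjusted p = 0.00913, 0.00966, 0.00346, 0.00291 and 0.00452). The second PDLIM5 probe gave 0.78 and was not called (adjusted p = 0.065).

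Called in the BPA-exposed fetuses and not in controls were SGCA and PPP1R12B. SGCA was 7.37, 7.72, 8.03, 8.09 and 8.34 in the GD100 uteri and 9.04, 9.79 and 9.85 in the GD165 uteri, without overlap, and its difference was 1.65 (SE 0.33, adjusted p = 0.00316). PPP1R12B was 15.96, 16.03, 16.14, 16.15 and 16.30 in the GD100 uteri and 16.57, 16.71 and 17.07 in the GD165 uteri, and its difference was 0.67 (SE 0.16, adjusted p = 0.0091). The other PPP1R12B probe gave 0.77 and was not called (adjusted p = 0.0188). CNN1, KCNMA1, SMTN and PDLIM7, called in controls, stood at 1.34, 1.18, 0.44 and -0.45 (adjusted p = 0.0128, 0.022, 0.094 and 0.0175), with no overlap between the ages in any of the 4. Both probes of PDLIM7 were lower here (-0.45 and -0.44). Whether the change with age differed between control and BPA-exposed fetuses is what the interaction term tests, and it called none of the 41 genes (0% of all probes), with no gene at an unadjusted p under 0.05.

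**Figure D3:**
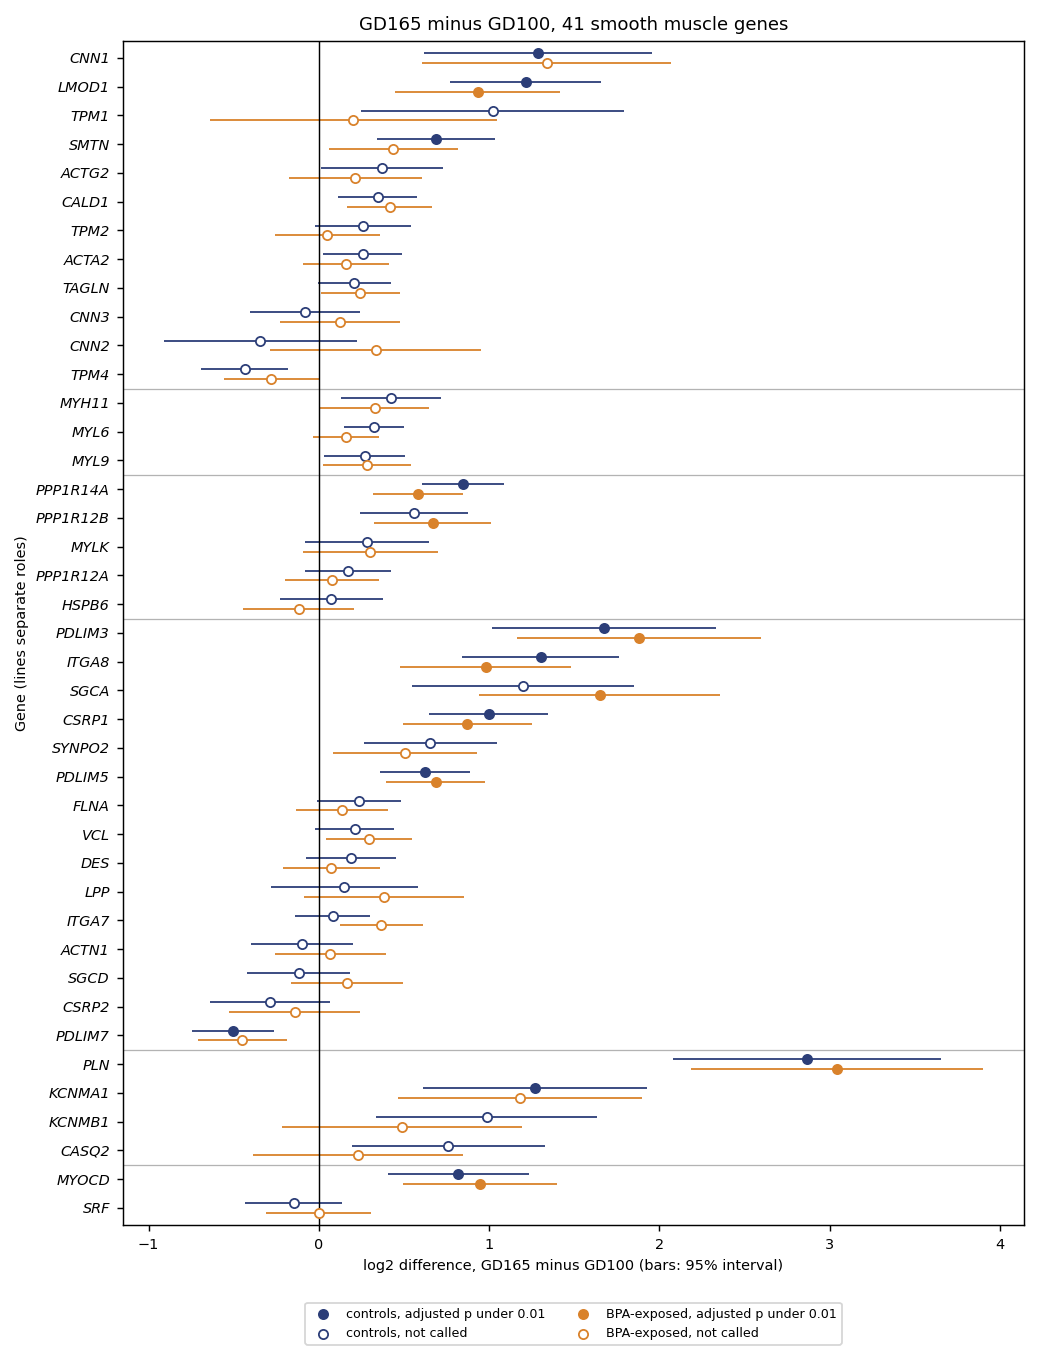
Difference between GD165 and GD100 (log2, horizontal axis) for the 41 genes in control (blue) and BPA-exposed (orange) fetuses, grouped by role, with 95% intervals as bars and filled points for genes called at an adjusted p of 0.01. PLN lies farthest to the right in both comparisons, at 2.87 and 3.04, and the 9 brightest genes lie between 0.05 and 0.42 in both.

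The number of called genes varied with the model. With the array slide as a fixed block, 6 genes in controls (PLN, PPP1R14A, ITGA8, LMOD1, CSRP1 and KCNMA1; 14.6%, against 6.10% of all probes) and 2 in BPA-exposed fetuses (PLN and PDLIM5; 4.88%, against 2.53%) were called, the PLN differences being 3.23 and 3.098. On the slides that held 1 uterus of each age, PLN differed by 3.01 (slide 3) and 3.05 (slide 5) in controls and by 2.58 (slide 2) in BPA-exposed fetuses. Of the 2 control calls whose ages overlapped, KCNMA1 differed by 1.25 and 1.44 and MYOCD by 0.34 and 1.17 on slides 3 and 5. The direction of the other calls on any such pair was fixed by the lack of overlap. When the fit held no other groups than those compared, 5 genes were called in each comparison (12.2%, against 5.80% and 5.82% of all probes). At an adjusted p of 0.05, 20 genes were called in controls and 15 in BPA-exposed fetuses, against 21.2% and 21.0% of all probes. Leaving out 1 animal at a time gave 7 to 14 calls in controls, where 7 came without GD100 control replicate 4, GD165 control replicate 1 or GD165 control replicate 6 (17.1%, against 8.82%, 8.41% and 7.48% of all probes). In BPA-exposed fetuses it gave 2 to 11. Without GD165 BPA replicate 4 the 2 genes called were 4.88% of the list, against 4.92% of all probes, so the larger share among the 41 genes was not seen without that uterus. The count was 3 without GD165 BPA replicate 5 (7.32%, against 5.84%), 5 without GD100 BPA replicate 3, 4 or 5 (12.2%, against 6.55 to 7.59%), and 6 without GD100 BPA replicate 1 (14.6%, against 7.42%). PLN in both comparisons and PPP1R14A, ITGA8 and CSRP1 in controls were called in every one of the 14 other settings and the 17 fits with an animal left out. Other calls held less often. In BPA-exposed fetuses LMOD1 and ITGA8 were each called in only 3 of the 17 fits with an animal left out, and PPP1R12B in 4. In controls CNN1, KCNMA1 and SMTN were called in 4, 5 and 6 of the 17.

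BPA exposure was compared with vehicle at each age. The paper's error-weighted analysis of variance reported significantly different probes at GD165 and few differing genes at GD100. That analysis was not repeated here, and the calls below are those of limma. At GD100 none of the 41 genes was called by limma (0% of all probes), none had an unadjusted p under 0.05, and none separated the groups (against 0.782% of all probes). Differences ran from -0.45 (CNN1) to 0.22 (MYOCD), with a median size of 0.08. For 40 of the 41 genes the 95% interval lay within a 2-fold change in either direction, CNN1 being the exception (interval -1.08 to 0.19). CNN1 was 12.05, 12.22, 12.40, 12.80 and 12.89 in exposed and 12.22, 12.80, 12.92, 13.18 and 13.47 in control uteri, largely overlapping. PLN, the gene that changed most with age, differed by 0.16 (SE 0.35), and ACTA2, MYH11 and DES by -0.04, -0.09 and -0.06 (SE 0.10, 0.13 and 0.12). On the 3 slides that held both groups, 20, 22 and 29 of the 41 genes had the sign of the fit.

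At GD165, BPA-exposed and control uteri again gave no call by limma (0% of all probes), with 3 genes at an unadjusted p under 0.05 and a smallest adjusted p of 0.532. The 3 were ITGA8, TPM4 and PPP1R14A. ITGA8 was 13.66, 14.15 and 14.60 in exposed and 14.38, 14.66, 14.88 and 14.97 in control uteri, where 1 exposed value lay within the control range and 2 lay below it, and its difference was -0.59 (SE 0.25, 95% interval -1.11 to -0.06, adjusted p = 0.533). PPP1R14A was 14.07, 14.26 and 14.62 in exposed and 14.35, 14.57, 14.70 and 14.88 in control uteri (difference -0.31, SE 0.13, adjusted p = 0.533). TPM4 differed by 0.33 (SE 0.14, adjusted p = 0.532). CNN2 alone separated the groups without overlap (1 of 41, 2.44%, against 7.31% of all probes). It was 15.53, 15.71 and 15.88 in exposed and 14.83, 15.21, 15.22 and 15.49 in control uteri, the exposed values being the higher, and its difference was 0.52 (SE 0.30, adjusted p = 0.662).

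With 3 and 4 uteri the GD165 comparison was less precise. The 95% interval lay within a 2-fold change for 32 genes and went past it for CASQ2, CNN1, CNN2, ITGA8, KCNMA1, KCNMB1, PLN, SGCA and TPM1, so for these 9 a 2-fold change still lay inside the interval. The widest was that of PLN, -0.56 to 1.23 around 0.34, followed by TPM1, -1.66 to 0.10 around -0.78, where the control uterus with the highest skeletal muscle markers held the highest level. On the single slide that held both groups at GD165, with 2 exposed and 1 control uterus, 34 of 41 genes had the sign of the fit.

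**Figure D4:**
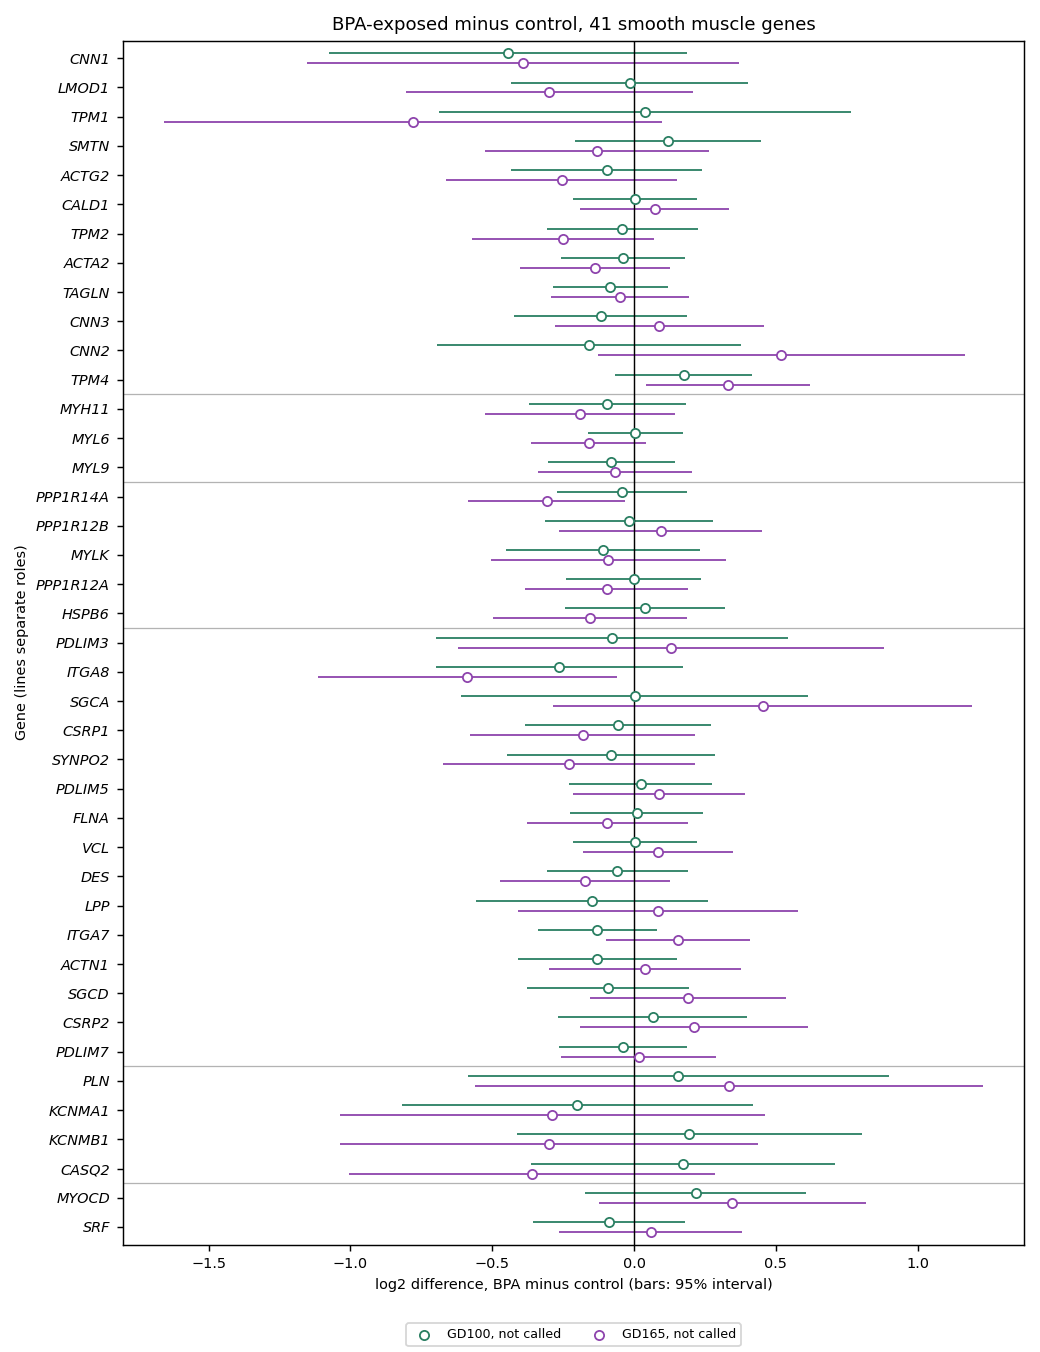
Difference between BPA-exposed and control uteri (log2, horizontal axis) for the 41 genes at GD100 (green) and GD165 (purple), grouped by role, with 95% intervals as bars and open points because none was called. The GD100 differences lie between -0.45 and 0.22 and those at GD165 between -0.78 and 0.52, and the intervals of ITGA8, TPM4 and PPP1R14A at GD165 leave out 0.

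Summed up per animal as the mean of gene-centred levels, the 41 genes were at -0.39, -0.29, -0.17, -0.15 and 0.07 in GD100 control uteri and 0.13, 0.23, 0.36 and 0.54 in GD165 control uteri. In BPA-exposed fetuses the same mean was -0.29, -0.25, -0.20, -0.20 and -0.17 at GD100 and 0.09, 0.20 and 0.49 at GD165. Every GD165 uterus was above every GD100 uterus, and GD100 control replicate 3, at 0.07, came nearest to the GD165 values. That uterus was also the one with the highest MYOCD and PDLIM3 levels of its group. GD165 control replicate 1 and GD165 BPA replicate 4 stood highest. Within groups the SD of a gene ran from 0.12 (MYL6) to 0.60 (PLN), with a median of 0.22.

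**Figure D5:**
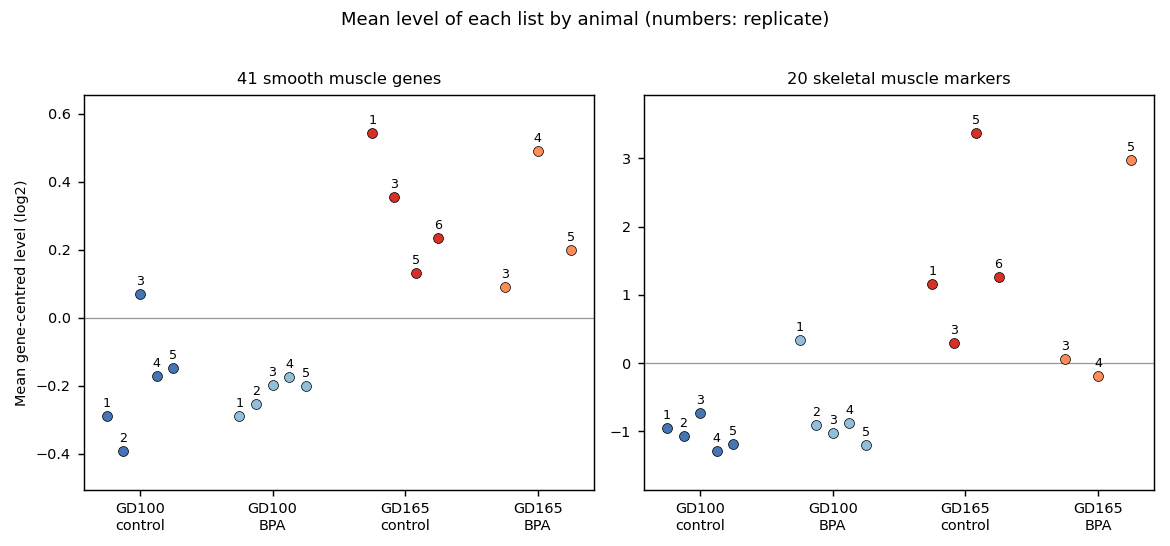
Mean gene-centred level (log2) of the 41 smooth muscle genes (left) and of 20 skeletal muscle markers (right) in each uterus, labelled with its replicate number. The 2 uteri highest in skeletal muscle markers are GD165 control replicate 5 at 3.37 and GD165 BPA replicate 5 at 2.98. Their smooth muscle values are 0.13, the lowest of its group, and 0.20, the median of its group.

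Markers of other cell types moved with age too, and they are given beside the smooth muscle genes because the tissue was whole. Of 20 skeletal muscle markers, 7 rose in controls (MYH2, myosin of fast fibres, by 4.35, ACTA1, skeletal actin, by 5.14 and MYH8, perinatal myosin, by 5.98). That was 35.0% of the list, against 11.5% of all probes. In BPA-exposed fetuses 2 rose (10.0%, against 9.68%), which was near the share of all probes. The summed level (log2) of the 20 markers ranged from 15.3 to 16.3 in GD100 control, 15.4 to 15.9 in GD100 BPA-exposed, 15.7 to 18.2 in GD165 control and 15.5 to 17.4 in GD165 BPA-exposed uteri. MYH1, CKM and MYL1 were not well above background in any GD100 control uterus. ACTA1 was 8.88, 10.75, 11.10 and 15.28 in the GD165 control uteri, against 5.70, 5.99, 6.35, 6.83 and 6.93 in the GD100 control uteri. Of the 41 genes, 15 were listed by hand as known from striated muscle as well (DES, CASQ2, PLN, PDLIM3, PDLIM5, PDLIM7, SGCA, SGCD, ITGA7, TPM1, TPM2, SYNPO2, SRF, HSPB6 and CSRP1). They held 5 of the 12 control calls and 5 of the 10 calls in BPA-exposed fetuses. That was 33.3% of the 15 in each comparison, against 26.9% and 19.2% of the 26 genes not on that list. The shares depend on which genes were put on the list, and no other split was tried.

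A fit without the 2 uteri highest in skeletal muscle markers was added after seeing the data. In it 12 genes were again called in controls, 9 of them among the original 12, and 5 in BPA-exposed fetuses, all among the original 10. The share of all probes called was then 11.3% and 6.16%, and 10 and 3 of the 20 skeletal muscle markers were called. The 3 genes that joined in controls were MYH11, CALD1 and PPP1R12B, with differences of 0.56, 0.42 and 0.67 (adjusted p = 0.00785, 0.00882 and 0.00699). PLN stood at differences of 3.31 and 2.99 (adjusted p = 1.07e-05 and 0.000149), and TPM1 in controls went from 1.02 to 0.59. In controls CNN1 (1.43, adjusted p = 0.0101), PDLIM5 (0.60, adjusted p = 0.0102) and PDLIM7 (-0.51, adjusted p = 0.0124) no longer passed. In BPA-exposed fetuses ITGA8 (0.97, adjusted p = 0.03), MYOCD (0.92, adjusted p = 0.0242), PDLIM5 (0.68, adjusted p = 0.0154), PPP1R12B (0.71, adjusted p = 0.0162) and SGCA (1.53, adjusted p = 0.0208) no longer passed.

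Vascular cells carry much of the same contractile set. RGS5, a marker of pericytes and vessel smooth muscle, rose by 1.79 in controls and 2.14 in BPA-exposed fetuses (adjusted p = 8.84e-06 and 1.24e-05). It was the 1 called in either comparison of 6 mural markers, of which 2 had negative differences in each (medians 0.11 and 0.26). Of 7 endothelial markers VWF alone was called (1.30 and 1.37), and 1 had a negative difference in each comparison. Most stromal markers had negative differences, with FBLN1, a matrix protein, lower by 0.79 and 0.84. All 7 were negative in controls, where PDGFRA was called as well, and 6 of the 7 in BPA-exposed fetuses. All 5 proliferation markers fell in both comparisons (MKI67 by 1.68 and 1.33). Over all probes, 11.5% were called in controls and 9.68% in BPA-exposed fetuses. Of 6 epithelial markers 4 rose in controls and 1 in BPA-exposed fetuses, of 7 leukocyte markers LYZ and CD74 rose in both, of 5 erythroid markers HBB rose in both while 4 and 3 of the list had negative differences (medians -0.05 and -1.87), and of 6 cardiac markers NPPA fell in BPA-exposed fetuses. The part of muscle, vessel and stromal cell numbers in the smooth muscle differences was not tested.

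Other genes of the same pathways, listed by name like the 41, were counted in the same way. Of 18 genes of calcium entry and excitability, 3 rose and 1 fell in controls and 2 rose in BPA-exposed fetuses (22.2% and 11.1% called, against 11.5% and 9.68% of all probes). TRPC6, a receptor-operated cation channel, rose by 0.91 and 0.96, and MRVI1, the IRAG protein that links cyclic GMP to the calcium store, by 0.68 and 0.72. In controls ITPR1, the calcium release channel itself, rose by 0.52, and ATP2B1, a calcium pump of the cell membrane, fell by 0.61.

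Among 36 further adhesion and cytoskeleton genes, 6 rose in controls and 5 in BPA-exposed fetuses, and none fell in either (16.7% and 13.9%, against 11.5% and 9.68% of all probes). SYNM, an intermediate filament protein that pairs with desmin, rose by 1.96 and 1.76, FHL1, a LIM protein of muscle, by 1.51 and 0.98, and DTNA, dystrobrevin alpha, by 0.75 and 1.05. LIMS2 and TAGLN2 rose in both comparisons by 0.47 to 0.66, and PXN rose in controls by 0.43. Of 29 regulators of smooth muscle transcription, 3 rose in controls (HEY1, FOXO4 and ID1) and 7 in BPA-exposed fetuses, the same 3 with KLF4, KLF2, MEF2D and SMAD7. That was 10.3% and 24.1% of the list, so the share in controls was near that of all probes. HEY1, a Notch target, rose by 0.66 and 0.57, and KLF4, which can repress smooth muscle genes, by 1.17 in BPA-exposed fetuses. Median differences of these 3 lists were 0.22, 0.21 and 0.24 in controls, against 0.32 for the 41 genes. In BPA-exposed fetuses they were 0.33, 0.21 and 0.28, against 0.30, so the calcium entry and excitability list stood slightly above the 41 genes there.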

How the data were processed

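RNA of 17 fetal uteri, 1 animal each, was hybridised to 1-colour Agilent rhesus macaque arrays, and the authors extracted the scans with Agilent Feature Extraction 9.5 at its 1-colour defaults. The deposited values are processed signal intensities per spot, background-corrected and not scaled between arrays. Groups and replicate numbers came from the sample titles.

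Control and outlier spots were left out, the 2 spots of a probe were averaged on the log2 scale, and each array was scaled to its 75th percentile, with the mean of that percentile (12.62) added back. limma 3.58.1 in R 4.3.3 fitted all 17 arrays in 4 groups (lmFit and eBayes, two-sided), with Benjamini-Hochberg adjustment over 20217 probes at a threshold of 0.01. The study's error-weighted analysis of variance was not repeated, and limma at the same threshold was used in its place. For MYH1, CKM and MYL1, not well above background in GD100 control uteri, no fitted fold is printed.

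The 41 genes and all comparison lists were chosen with earlier results of these data known. Every listed gene could be named. From the other lists, called genes could be named, up to 6 per list by size of difference, besides markers needed to say what the tissue holds. Of 181 genes on those lists, 171 had a probe, and 1 of the lists is not reported here. Median-centred, quantile, unscaled and normexp (offset 50) values, a filter on dim probes, kept outlier spots, slide and replicate number as blocks, only the compared groups, trended robust moderation, the mean over probes, a threshold of 0.05 and each animal left out were tried as alternatives. A separate limma fit in the same 4 groups, without the alternatives, was tried on simulated data. Precision is limited by the number of arrays. No coordinates are given, because probe positions in the files did not lie on the genes' chromosomes for most genes.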

Additional observations from a re-analysis of the deposited data

Results flagged for a closer look

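Of 123 groups of values, each 1 gene in 1 group of 4 or 5 uteri, 5 held a uterus set far apart from the others by Dixon's ratio, a test that marks about 1 group in 20 by chance. ITGA8 was 12.71 in GD100 control replicate 2, against 13.57 to 13.63 in the other 4 uteri. CNN2 was 14.23 in GD100 BPA replicate 2, against 15.57 to 15.80. In GD100 BPA replicate 3, ACTA2 was 18.999, against 18.66 to 18.73, and MYLK was 16.99, against 16.69 to 16.76. CNN3 was 15.00 in GD100 control replicate 3, against 14.70 to 14.78.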

How the results depend on the processing

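No difference of any of the 41 genes that was called changed sign under any alternative or with any animal left out. The number called was 12 in controls and 10 in BPA-exposed fetuses. In controls it was 7 without scaling between arrays (17.1%, against 7.57% of all probes) and 20 at a threshold of 0.05 (48.8%, against 21.2%). It was 6 and 2 with the slide as a fixed block, and 5 and 5 when no other groups than those compared were fitted. Without the 2 uteri highest in skeletal muscle markers, an alternative added after seeing the data, it was 5 in BPA-exposed fetuses. The shares of all probes in these last fits are given above. Leaving out 1 animal gave 7 to 14 and 2 to 11. Apart from the replicate block, given next, the alternatives not named so far gave 9 to 15 in controls (22.0 to 36.6%). Those in BPA-exposed fetuses gave 7 to 15 (17.1 to 36.6%). The shares of all probes were 11.5 to 13.0% and 8.09 to 21.0%, not counting the filter on dim probes, for which none was computed. Both BPA comparisons and the interaction gave 0 throughout.

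Same-numbered animals of different groups were only weakly correlated after group means were removed (19 pairs, r from -0.17 to 0.16, 3 over 0.1). Differently numbered animals were not set beside them, so whether the numbers link animals was not tested. The replicate block gave 4 and 3 calls (9.76% and 7.32% of the list, against 4.74% and 7.14% of all probes).

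Without scaling the median of all probes shifted to 0.13 in the age comparison of BPA-exposed fetuses and to 0.14 in the GD165 BPA comparison, and with normexp to -0.11 in the former. Of all called probes, the share higher at GD165 was 54.9% in controls, 46.2% with median centring and 47.4% with quantile normalization, and in BPA-exposed fetuses 49.8%, or 76.2% without scaling.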
